A study of Canis lupus familiaris with 15 samples.

Results

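Tumors with high and with low levels of 2 cartilage genes were compared among primary osteosarcomas of 15 pet dogs. COL2A1 encodes the chain of type II collagen and ACAN encodes aggrecan, and each tumor was scored by the mean log2 signal of the pair, each gene by its brightest probeset. The 5 tumors with the highest score, called high-score tumors here, were set against the 5 with the lowest, called low-score tumors, out of 15 in all, and the other 5 are called middle tumors. The groups were thus chosen by measured values of COL2A1 and ACAN on the same arrays that gave every other gene, and no label of the series describes them.

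Osteosarcoma is a malignant tumor of bone whose cells lay down osteoid, the type I collagen matrix of bone, and some osteosarcomas also lay down cartilage. Cartilage is made by chondrocytes, which depend on the transcription factor SOX9 and its partners SOX5 and SOX6. Its matrix is a mesh of type II, IX and XI collagen filled with aggrecan, which link protein (HAPLN1) holds on chains of hyaluronan, and matrilins and COMP connect these parts. In the growth plate, chondrocytes swell, switch to type X collagen and signal to bone cells by Indian hedgehog.

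All 15 tumors were snap frozen at amputation of the limb, before any chemotherapy, and total RNA of each was hybridised to 1 Affymetrix Canine 2.0 array. The cohorts of the study were dogs with a disease free interval (DFI) below 100 days, labelled DFI<100, and dogs with one above 300 days, labelled DFI>300. The high-score tumors came from 3 Greyhounds, 1 Labrador Retriever and 1 Rottweiler, 3 of them in the DFI<100 and 2 in the DFI>300 cohort. The low-score tumors came from 4 dogs of mixed breed and 1 Golden Retriever, 2 of them in the DFI<100 and 3 in the DFI>300 cohort. No breed occurred in both groups, with 3 Greyhounds against 0 and 0 dogs of mixed breed against 4. Breed and score group therefore cannot be told apart. Among the high-score tumors 3 were osteoblastic, 1 was of the giant cell subtype and 1 was poorly differentiated, and among the low-score tumors 4 were osteoblastic and 1 was of the giant cell subtype. None of the 10 carried a chondroblastic diagnosis. Forelimb tumors were 3 of the 5 high-score and 2 of the 5 low-score tumors, and castrated males were 3 of 5 and 2 of 5. After amputation, of the dogs with high-score tumors 3 received doxorubicin, 1 cisplatin and 1 carboplatin. Of those with low-score tumors 3 received cisplatin and 2 doxorubicin. The dogs with high-score tumors were younger on average, 8.54 against 11.0 years, a difference that is tested with the cohorts at the end.

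Values are log2 of the PLIER signal, a summary of all probes of a probeset, and a difference of 1 is a doubling. A level at or below 6.79, the 95th percentile of 64 control probesets for reporter sequences, is called near background. At that level the PLIER signal can come close to 0 and its log2 far below 0, so that large log2 differences between such values carry little signal. Each array had 32.8% to 35.4% of its probesets above the reporter level. RNA and labelling quality, read from the control probesets as the log2 of 3 prime over 5 prime signal, was 1.24 ± 0.28 in high-score and 1.15 ± 0.15 in low-score tumors (SD, n = 5 each; p = 0.563, 2-sided exact permutation test). These are bulk tumors, so fewer cells of a type and less RNA per cell cannot be told apart.

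The order of the tumors rested mostly on COL2A1. The score was 10.80 in dog 204714, 10.56 in dog 208756, 8.55 in dog 188084, 8.01 in dog 223986 and 7.80 in dog 208513, against 5.82 in dog 212759, 5.51 in dog 180223, 5.40 in dog 153599, 3.97 in dog 180119 and -0.63 in dog 190030. The nearest tumors outside the groups scored 7.73 (dog 184844, just under the high-score tumors) and 7.19 (dog 173175, just above the low-score tumors). The step between 7.80 and 7.73 at the upper border was small beside the range of the score. With the score taken after adding 16 to each signal, a choice made after seeing the data, dog 173175 took the place of dog 208513 among the 5 highest, and the 5 lowest stayed the same. With those groups the difference described below was 4.01 for HAPLN1, 3.22 for CNMD, 0.73 for COMP and -1.49 for ACP5, in place of 4.77, 4.67, 1.39 and -3.52.

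COL2A1 had 10.85, 10.35, 7.93, 6.86 and 9.69 in the high-score tumors, in the order above, and 8.21, 0.69, 1.93, 2.51 and -7.61 in the low-score tumors. Every low-score value but that of dog 212759 was near background, and -7.61 in dog 190030 is a signal close to 0. The other probeset of COL2A1, not used in the score, was near background in every tumor. It overlapped between the groups, with 1.87 to 3.36 in high-score and -0.61 to 2.53 in low-score tumors. ACAN had 10.75, 10.77, 9.17, 9.15 and 5.90 in high-score tumors and 3.42, 10.33, 8.88, 5.43 and 6.35 in low-score tumors. The 2 genes overlapped between the groups, and only dogs 204714 and 208756 were above 10 in both. The highest ACAN signal of all 15 tumors, 12.15, was in dog 173175 of the middle tumors, where COL2A1 was 2.23. Over the 15 tumors COL2A1 and ACAN had a Pearson r of 0.07 and a Spearman rho of 0.03, and the Spearman rho with the score they make was 0.82 for COL2A1 and 0.43 for ACAN. These values chose the tumors and were not tested.

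**Figure D1:**
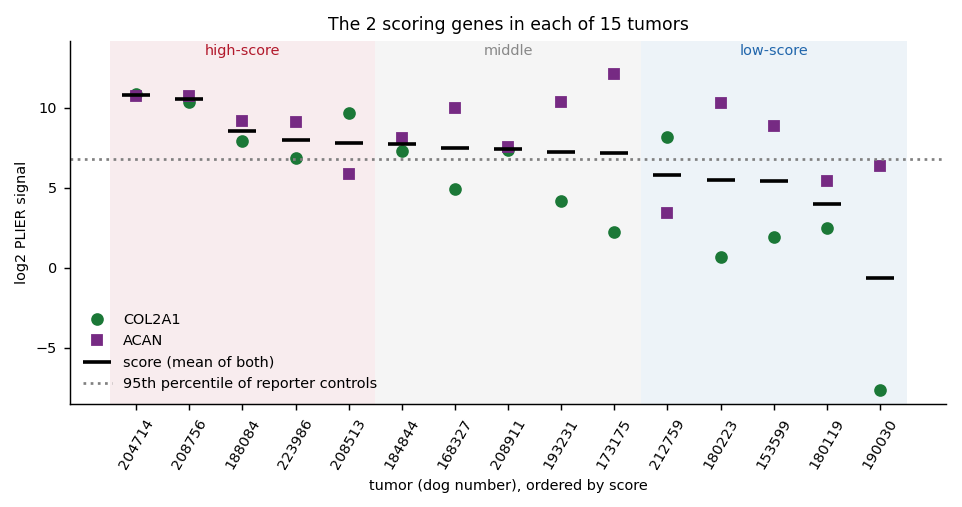
Log2 PLIER signal (y axis) of COL2A1 (circles) and ACAN (squares) in each of the 15 tumors, ordered along the x axis by the score, their mean (bars). The dotted line is the reporter level, 6.79. The 2 genes lie close together in dogs 204714 and 208756 and far apart in dogs 173175, 180223 and 190030.

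The label of cartilage-forming tumors was set against cartilage genes that the score did not use, and it was borne out in part. HAPLN1 and CNMD were far above background in dogs 208756 and 208513, while MATN1, a matrilin of cartilage, was near background in all 15 tumors. Strong HAPLN1 and CNMD were not confined to high-score tumors. HAPLN1 was 11.54 in dog 168327 of the middle tumors, and CNMD was far above background in dog 180223 of the low-score tumors. SOX9 was near background in 4 of the 5 high-score tumors. The groups are therefore named by their score. Of 19 measured genes for cartilage matrix other than the scoring pair, 14 had a higher and 5 a lower mean in high-score tumors, with a median difference of 0.53, against 7410 higher and 7703 lower of all 15113 genes with a median of -0.01. At an unadjusted p below 0.05, 2 of the 19 were higher and 0 lower, where 4.57% of all genes were higher and 3.31% lower. Only 4 of the 19 had a mean above the reporter level.

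HAPLN1, the link protein, differed most among these. It had 9.22, 12.15, 6.13, 6.47 and 11.42 in high-score tumors (dogs 204714, 208756, 188084, 223986 and 208513), against 3.66, 6.45, 5.57, 1.85 and 4.0 in low-score tumors (dogs 212759, 180223, 153599, 180119 and 190030). The groups touched at dogs 188084 and 180223 but were otherwise apart, and 4 of the 5 middle tumors, at 7.6 to 11.5, were also above every low-score tumor. The difference was 4.77 ± 1.32 (SE), with an adjusted p of 0.535 in limma, a linear model with a moderated test, after Benjamini-Hochberg adjustment over 42857 probesets.

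Chondromodulin (CNMD), an angiogenesis inhibitor of cartilage, was a signal of single tumors. It had 10.97 in dog 208513 and 8.53 in dog 208756 of the high-score tumors, and 2.75 to 5.21 in their other 3. Among low-score tumors it had 9.49 in dog 180223 and -7.98 to 3.30 in the other 4. A tumor with strong CNMD was therefore in each group, and in dog 180223 ACAN was 10.33 and COL2A1 0.69.

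COMP, a protein that bridges matrix collagens in cartilage and tendon, had 7.83 to 10.58 in high-score tumors and 6.39 to 9.03 in low-score tumors, highest in dogs 208513 and 223986 and overlapping between the groups. The difference was 1.39 ± 0.65 (SE; adjusted p = 0.643). COL11A2, a chain of cartilage type XI collagen, had 5.44 to 6.83 against 4.77 to 6.02, a difference of 1.03 ± 0.34 (SE; adjusted p = 0.566), and in high-score tumors only dog 204714 was above the reporter level. Of the others, COL9A1 of type IX collagen averaged 5.61 ± 0.56 in high-score and 5.03 ± 0.34 in low-score tumors, matrilin-3 (MATN3) 5.32 ± 1.57 and 4.56 ± 1.58, and MATN1 2.13 ± 0.53 and 2.45 ± 0.31 (SD, n = 5 each), all near background as means.

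**Figure D2:**
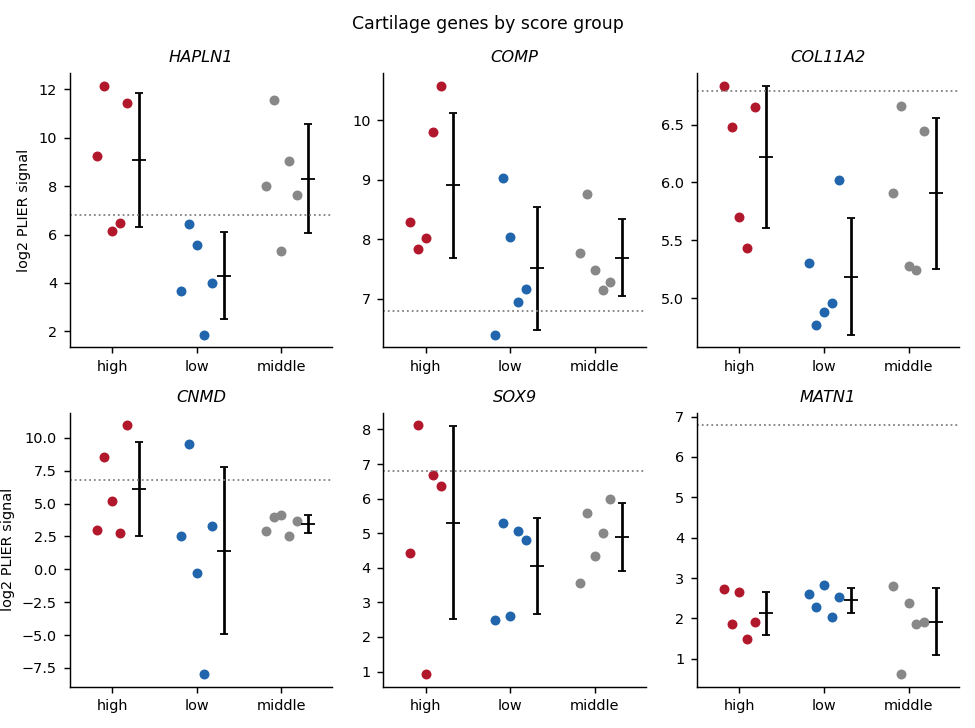
Log2 PLIER signal (y axis) of 6 cartilage genes in each high-score, low-score and middle tumor (points, 5 each), with the mean and SD beside them and the reporter level as a dotted line. HAPLN1 lies between 6.13 and 12.15 in high-score tumors and between 1.85 and 6.45 in low-score tumors, while MATN1 lies under 3 in every tumor.

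Most transcription factors of chondrocytes were faint, with 4 of 14 measured above the reporter level as a mean. Of the 14, 10 had a higher and 4 a lower mean in high-score tumors, with a median difference of 0.49, and 2 were higher at an unadjusted p below 0.05, as were 4.57% of all genes. SOX9, the first factor of the lineage, had 4.41, 8.13, 0.92, 6.69 and 6.37 in high-score tumors, against 2.50, 5.29, 2.59, 5.06 and 4.80 in low-score tumors. Its highest value was in dog 208756 and its lowest in dog 188084, both high-score tumors. SOX5 averaged 5.13 ± 1.09 in high-score and 3.88 ± 0.97 in low-score tumors, and SOX6 5.56 ± 0.75 and 4.63 ± 0.35 (SD, n = 5 each; adjusted p = 0.643 and 0.597). Of those named here TRPS1, a repressor active in growth plate chondrocytes, was the one well above background, with 7.34 to 9.67 in high-score and 6.90 to 8.18 in low-score tumors (difference 1.04 ± 0.46, SE; adjusted p = 0.63).

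The genes of late chondrocytes and of hedgehog signaling went both ways. Type X collagen (COL10A1), the mark of hypertrophic chondrocytes, averaged 5.94 ± 0.95 in high-score and 6.53 ± 0.65 in low-score tumors by its brighter probeset (SD, n = 5 each). Its other probeset went the other way, with 10.55, -7.88, 6.11, 1.80 and 0.48 in high-score tumors, against 2.11, -8.42, -8.74, -7.35 and -8.98 in low-score tumors (difference 8.49 ± 3.35, SE; adjusted p = 0.604). Only dog 204714, the tumor with the highest score, was above the reporter level by that probeset. Indian hedgehog (IHH) averaged 4.67 ± 0.46 in high-score and 4.34 ± 0.43 in low-score tumors. The hedgehog co-receptor BOC averaged 6.47 ± 0.71 in high-score and 5.53 ± 0.36 in low-score tumors (adjusted p = 0.58). Its relative CDON averaged 3.95 ± 0.12 and 4.73 ± 0.46 without overlap (adjusted p = 0.535). All 4 lay near background as means of the brightest probeset. Of the 14 genes measured, 9 were higher and 5 lower in mean. At an unadjusted p below 0.05 in limma, 2 were higher and 1 lower, beside 4.57% and 3.31% of all genes.

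Over all 42857 probesets tested, 1 passed an adjusted p of 0.05, or 0.00233%, and it was lower in high-score tumors. It belongs to PIP, prolactin-induced protein, a secreted protein of glands. It had 2.10, 1.66, 2.03, 2.11 and 1.67 in high-score tumors, against 6.27, 6.39, 7.17, 5.36 and 5.47 in low-score tumors without overlap. The difference was -4.22 ± 0.33 (SE; adjusted p = 0.00777 in limma), and the middle tumors lay between -0.01 and 4.14, all below the low-score tumors. Only dog 153599 was above the reporter level, so that this is a difference among faint signals. The other probeset of PIP had 2.32 to 5.27 in high-score and 5.57 to 7.07 in low-score tumors (difference -1.76 ± 0.56, SE; adjusted p = 0.55). Without dog 208513 or without dog 180223, 0 probesets passed, and the methods' t-test gave 0 at an adjusted and 3237 at an unadjusted p below 0.05.

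At an unadjusted p below 0.05, limma gave 1723 higher and 1651 lower probesets. By genes, each by its brightest probeset, all 5 high-score tumors were above all 5 low-score tumors in 143 of 15113 genes (0.946%) and below them in 97 (0.642%). Genes were ranked among those with a mean over all 15 tumors above the reporter level, so that a gene could enter through the tumors where it was high. None of the genes described from here on passed the adjusted p, and their adjusted p values lay between 0.301 and 0.948. Their values are given as levels and differences with their errors.

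POSTN, THBS2 and SMOC2 were among the 15 genes with the smallest p that were higher in high-score tumors. Periostin (POSTN), which periosteum, tendon and the stroma of tumors secrete and which binds collagen, had 11.05, 10.99, 11.30, 9.65 and 11.25 in high-score tumors, against 4.56, 8.24, 8.31, 5.05 and 5.75 in low-score tumors. The groups did not overlap, and 3 of the low-score tumors were near background. The difference was 4.46 ± 0.77 (SE; adjusted p = 0.484), measured against a low-score mean of 6.38 that is itself near background. The middle tumors had 10.2 to 13.2, so that POSTN set the low-score tumors apart from all others rather than following the order of the score.

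Thrombospondin-2 (THBS2), a matrix protein that restrains vessel growth and shapes collagen fibrils, had 11.41, 10.83, 9.69, 10.59 and 9.41 in high-score tumors, against 7.60, 7.85, 9.15, 5.99 and 5.76 in low-score tumors. The groups did not overlap, and the difference was 3.12 ± 0.66 (SE). The other probeset of the gene gave 3.05 but overlapped, with 8.93 in dog 188084 and 9.13 in dog 153599. Unlike POSTN, THBS2 was as low as 4.8 in a middle tumor. SMOC2, a calcium-binding matrix protein, had 10.75, 10.55, 8.00, 9.48 and 9.99 in high-score tumors and 7.11, 7.41, 6.56, 7.34 and 8.04 in low-score tumors, and the groups met at dogs 188084 and 190030. Its difference was 2.46 ± 0.50 (SE), and the 5 probesets of the gene gave 2.04 to 2.73. Without dog 188084, 2 of its other probesets passed, with differences of 2.89 and 3.07 (adjusted p = 0.046 and 0.0448 in limma). Both genes had an adjusted p of 0.521.

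Enzymes that build matrix went both ways. CHSY3, one of the synthases of chondroitin sulfate chains such as those of aggrecan, had 8.11, 7.21, 7.41, 6.90 and 6.36 in high-score tumors, against 4.78, 4.99, 6.01, 5.32 and 4.79 in low-score tumors. All low-score tumors were near background, and the difference was 2.02 ± 0.35 (SE; adjusted p = 0.484). Of 28 measured genes for the synthesis of sulfated glycosaminoglycans, however, 15 were higher and 13 lower in mean, with a median difference of 0.02. Another that had a higher mean was B3GAT3, which adds the last sugar of the linker between chain and core protein, with 6.87 ± 0.30 in high-score and 6.22 ± 0.38 in low-score tumors (SD, n = 5 each; adjusted p = 0.579).

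Of 25 measured genes for collagen processing, 19 were higher and 6 lower in mean, with a median difference of 0.22. At an unadjusted p below 0.05, 4 were higher and 0 lower, beside 4.57% and 3.31% of all genes. However, 22 of the 25 had a mean above the reporter level, where genes more often had the higher mean in high-score tumors. Of all 6447 genes above that level 3585 were higher and 2862 lower in mean, and 428 and 188 at an unadjusted p below 0.05. LOXL2, a lysyl oxidase that cross-links collagen, had 10.99, 11.08, 11.40, 11.52 and 10.48 in high-score tumors, against 9.17, 10.55, 9.80, 7.93 and 10.09 in low-score tumors, a difference of 1.59 ± 0.45 (SE; adjusted p = 0.535). Its relative LOX averaged 8.73 ± 1.0 and 6.87 ± 1.03 (adjusted p = 0.55). SEC23A, of the coat that carries procollagen out of the endoplasmic reticulum, had 10.71 to 10.99 in high-score and 10.12 to 10.65 in low-score tumors without overlap, but the difference was only 0.48 ± 0.15 (SE; adjusted p = 0.541). Of 19 measured matrix proteases and their inhibitors, 6 were higher and 13 lower in mean, with a median difference of -0.21. In that list the gelatinase MMP2 averaged 10.50 ± 0.62 and 8.63 ± 0.95 (adjusted p = 0.522). The inhibitor TIMP3 averaged 8.88 ± 0.74 and 9.86 ± 0.65 (SD, n = 5 each; adjusted p = 0.618).

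Small leucine-rich proteoglycans, which coat collagen fibrils, varied widely from tumor to tumor. Of 11 measured, 7 were higher and 4 lower in mean, with a median difference of 0.22. Osteoglycin (OGN) had 7.03 to 10.39 in high-score and 4.42 to 8.34 in low-score tumors, and asporin (ASPN) 7.23 to 11.35 and 2.78 to 9.16, with overlap in both (adjusted p = 0.593 and 0.613). Decorin (DCN), the most abundant of the family in fibrous tissue, had 12.11 to 13.44 and 8.04 to 13.05, and its lowest value was in dog 180119. Of the fibrillar and associated collagens, COL5A1 of type V averaged 11.50 ± 0.63 in high-score and 10.39 ± 0.96 in low-score tumors, and COL12A1 12.04 ± 0.49 and 11.03 ± 1.0 (SD, n = 5 each). Tenascin-C (TNC), a matrix protein of healing tissue and tumors, went the other way, with 7.22 ± 0.41 in high-score and 8.58 ± 1.06 in low-score tumors (adjusted p = 0.579).

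**Figure D3:**
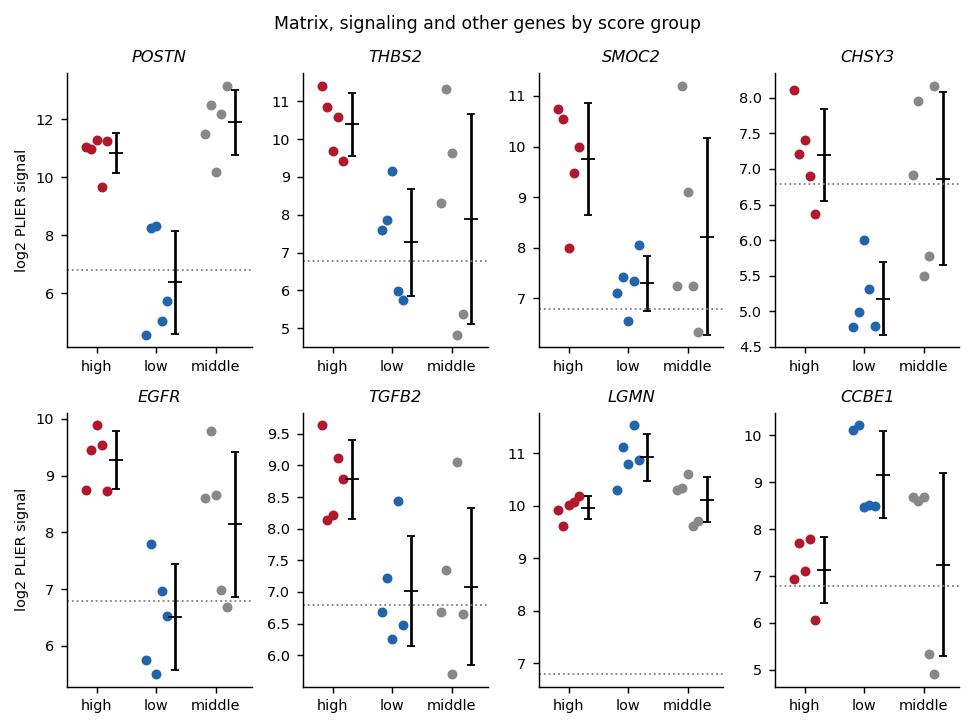
Log2 PLIER signal (y axis) of 8 genes in each high-score, low-score and middle tumor (points, 5 each), with mean and SD and, as a dotted line, the reporter level. POSTN, THBS2, CHSY3 and EGFR are higher and LGMN and CCBE1 lower in every high-score tumor than in any low-score tumor, and the middle tumors spread over both ranges in most panels.

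The epidermal growth factor receptor (EGFR) stood beside POSTN at the top of the ranking. It had 8.75, 9.45, 9.89, 9.53 and 8.73 in high-score tumors, against 5.75, 7.79, 5.50, 6.97 and 6.52 in low-score tumors, where 3 of 5 were near background. The groups did not overlap, and the difference was 2.76 ± 0.44 (SE; adjusted p = 0.448), measured against a low-score mean of 6.51 that is near background. The second probeset of the gene, near background, gave 1.26. The middle tumors had 6.7 to 9.8 and spanned both groups.

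Ligands of the TGF-beta family diverged, and the list of TGF-beta and BMP genes was balanced: 15 of its 34 measured genes had a higher and 19 a lower mean in high-score tumors, with a median difference of -0.03. TGFB2 averaged 8.78 ± 0.63 in high-score and 7.02 ± 0.87 in low-score tumors, and INHBA, the subunit of activin A, 9.22 ± 0.91 and 7.49 ± 0.72 (SD, n = 5 each; adjusted p = 0.523 and 0.535). BMP4, a bone morphogenetic protein that promotes both cartilage and bone, averaged 6.81 ± 1.13 and 8.31 ± 1.18 (adjusted p = 0.626). ID3, a target that BMP signals induce, averaged 10.73 ± 0.63 and 11.56 ± 0.57 (SD, n = 5 each; adjusted p = 0.622). FGF10, a limb bud growth factor, was near background in all high-score tumors at 3.13 to 4.04, against 4.18 to 8.15 in low-score tumors, where dogs 180223 and 190030 had 7.75 and 8.15.

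The gene with the smallest p among those with a mean over 15 tumors above the reporter level was ETNK1, ethanolamine kinase, which starts the synthesis of phosphatidylethanolamine. It had 7.70, 7.61, 7.97, 8.26 and 8.31 in high-score tumors, against 6.45, 6.47, 6.91, 6.55 and 6.22 in low-score tumors. Of the low-score tumors 4 were near background, so that ETNK1 was above the reporter level only through other tumors. The difference was 1.45 ± 0.20 (SE; adjusted p = 0.301). Others of this ranking also had a small spread within each group and no overlap. The nuclear import receptor TNPO1 averaged 8.73 ± 0.17 in high-score and 7.72 ± 0.23 in low-score tumors, the RNA-binding protein CELF1 8.70 ± 0.22 and 7.68 ± 0.30, and the transcription and export factor ENY2 10.96 ± 0.26 and 9.90 ± 0.32 (SD, n = 5 each). PRMT3, which methylates a ribosomal protein, averaged 9.19 ± 0.28 and 7.86 ± 0.52, and its 3 probesets gave differences of 1.33 to 1.57. For CELF1 the 3 other probesets gave only 0.17 to 0.37.

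LGMN, AGA, CCBE1, PGF, PTPRM, JUP and MIEN1 were among the 15 genes with the smallest p that were lower in high-score tumors. Legumain (LGMN), a lysosomal protease abundant in macrophages, had 9.92, 9.61, 10.02, 10.07 and 10.19 in high-score tumors, against 10.31, 11.12, 10.79, 11.54 and 10.88 in low-score tumors. The groups did not overlap, and the difference was -0.97 ± 0.23 (SE; adjusted p = 0.521). The 5 probesets of LGMN gave -1.37 to -0.97, and some of the others overlapped between the groups. Aspartylglucosaminidase (AGA), which breaks down glycoproteins, averaged 9.15 ± 0.51 in high-score and 10.38 ± 0.53 in low-score tumors (SD, n = 5 each). CCBE1, a secreted protein needed for lymphatic vessel growth, had 6.05 to 7.80 and 8.47 to 10.22 without overlap, a difference of -2.04 ± 0.48 (SE), and placental growth factor (PGF) averaged 6.86 ± 0.47 and 8.16 ± 0.57. The receptor phosphatase PTPRM averaged 8.96 ± 0.42 and 10.10 ± 0.44, and plakoglobin (JUP), a protein of cell junctions, 7.67 ± 0.38 and 8.66 ± 0.37 (SD, n = 5 each). MIEN1, a regulator of cell migration, averaged 8.40 ± 0.17 in high-score and 9.32 ± 0.31 in low-score tumors without overlap. Its other probeset gave a difference of -0.79, with overlap.

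The bone list held both small and larger differences. COL1A1, the main collagen of bone, had 13.01 to 13.35 in high-score and 12.76 to 13.13 in low-score tumors with overlap. The bone lineage factor RUNX2 averaged 8.25 ± 0.89 and 8.10 ± 0.73 (SD, n = 5 each), a difference of 0.15 ± 0.47 (SE; adjusted p = 0.948). Bone sialoprotein (IBSP) had 9.44 to 13.56 in high-score and 7.54 to 12.13 in low-score tumors, highest in dog 204714 (difference 1.48 ± 0.96, SE; adjusted p = 0.717). Osteoprotegerin (TNFRSF11B), which holds back osteoclasts, had 4.28 to 9.69 and 1.81 to 8.33 (difference 1.97 ± 1.31, SE; adjusted p = 0.723). FKBP11, a folding factor of secretory cells, averaged 11.17 ± 0.28 in high-score and 10.20 ± 0.80 in low-score tumors (SD, n = 5 each; adjusted p = 0.592), and all 3 overlapped between the groups. In the bone and osteoblast list 15 of 19 measured genes had a higher and 4 a lower mean in high-score tumors, with a median difference of 0.16, and 1 was higher at an unadjusted p below 0.05 (4.57% of all genes).

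Osteoclasts and macrophages were the lists with the lowest medians. Of 14 osteoclast genes 1 had a higher and 13 a lower mean in high-score tumors, with a median difference of -0.68, and none reached an unadjusted p of 0.05. The low values lay in 2 tumors. ACP5, the tartrate-resistant phosphatase of osteoclasts, had 12.77, 5.28, 12.14, 11.57 and 1.01 in high-score tumors, against 11.07, 11.99, 12.68, 12.31 and 12.34 in low-score tumors. The difference was -3.52 ± 2.09 (SE), and -1.64 without dog 208513. The low ones were dogs 208756 and 208513, the same pair that led in HAPLN1 and CNMD among high-score tumors, and the other 3 were within or beside the range of the low-score tumors. Cathepsin K (CTSK), the collagenase of osteoclasts, had 10.60 and 9.83 in these 2 tumors and 13.16 to 13.41 in the other 3 high-score tumors, against 12.71 to 13.49 in low-score tumors.

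All 20 macrophage genes had a lower mean in high-score tumors, with a median difference of -0.83, and 1 of them had an unadjusted p below 0.05 (3.31% of all genes were lower by that measure). In each tumor, the mean log2 level over the list lay between 6.76 and 8.80 in high-score tumors and between 6.73 and 10.42 in low-score tumors, so that both the highest tumor, dog 180119, and the lowest, dog 190030, were low-score tumors. The lysosomal protein CD68 had 11.34, 5.63, 9.76, 10.28 and 5.25 in high-score tumors, against 9.02, 10.29, 11.27, 11.24 and 10.45 in low-score tumors. Dogs 208756 and 208513 were again the low ones. LGMN was lower in the same comparison as these lists, and the part of macrophage content in its difference was not tested.

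**Figure D4:**
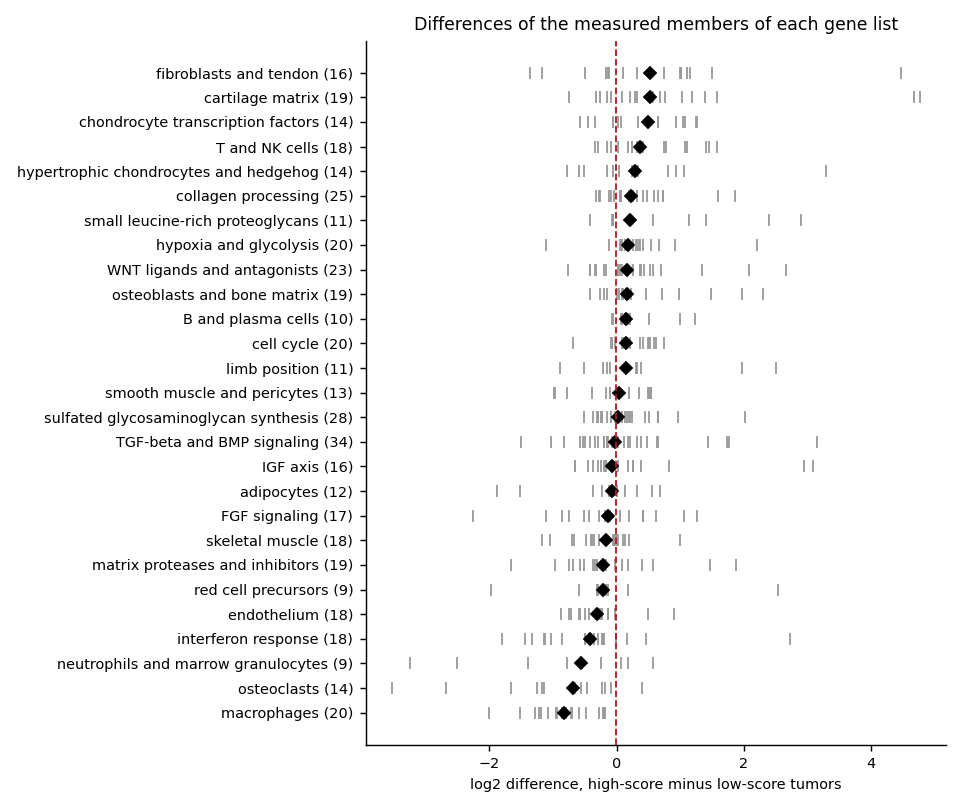
Log2 difference of high-score minus low-score tumors (x axis) for each measured member (ticks) of 27 gene lists, with the median of each list (diamonds) and the median of all genes (dashed line, -0.01). The number of measured members is in parentheses. Macrophages (-0.83) and osteoclasts (-0.68) have the lowest medians, and fibroblasts and tendon and cartilage matrix (both 0.53) the highest.

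Lists of other cells and programs leaned higher or lower by list. Of 18 genes of T and NK cells 14 had a higher mean in high-score tumors, with a median difference of 0.38. The T cell receptor subunit CD3D had 2.65 to 8.21 in high-score and 1.41 to 5.68 in low-score tumors, and only dog 188084 was above the reporter level. Of 18 genes of the interferon response 3 were higher and 15 lower in mean, with a median of -0.42. At an unadjusted p below 0.05 in limma, 0 were higher and 3 lower, beside 4.57% and 3.31% of all genes. OAS2, an antiviral enzyme, averaged 8.50 ± 1.28 in high-score and 9.94 ± 0.40 in low-score tumors (SD, n = 5 each; adjusted p = 0.599), with the lowest values in dogs 204714 and 208756. The chemokine CXCL10 went against its list, with 5.27 to 10.62 in high-score and 4.21 to 9.96 in low-score tumors.

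Of 20 genes of hypoxia and glycolysis 18 were higher and 2 lower in mean, with a small median difference of 0.18. Carbonic anhydrase 9 (CA9), an enzyme induced when oxygen is low, had 9.24, 8.12 and 7.94 in dogs 208756, 223986 and 208513 and 5.07 and 4.61 in the other 2 high-score tumors, against 4.68 to 4.94 in all low-score tumors. Lactate dehydrogenase A (LDHA) averaged 12.74 ± 0.26 and 12.20 ± 0.33 (SD, n = 5 each; adjusted p = 0.599). Of 20 cell cycle genes 14 were higher and 6 lower, with a median of 0.15 and none at an unadjusted p below 0.05. Of 18 endothelial genes 2 were higher and 16 lower, with a median of -0.31.

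**Figure D5:**
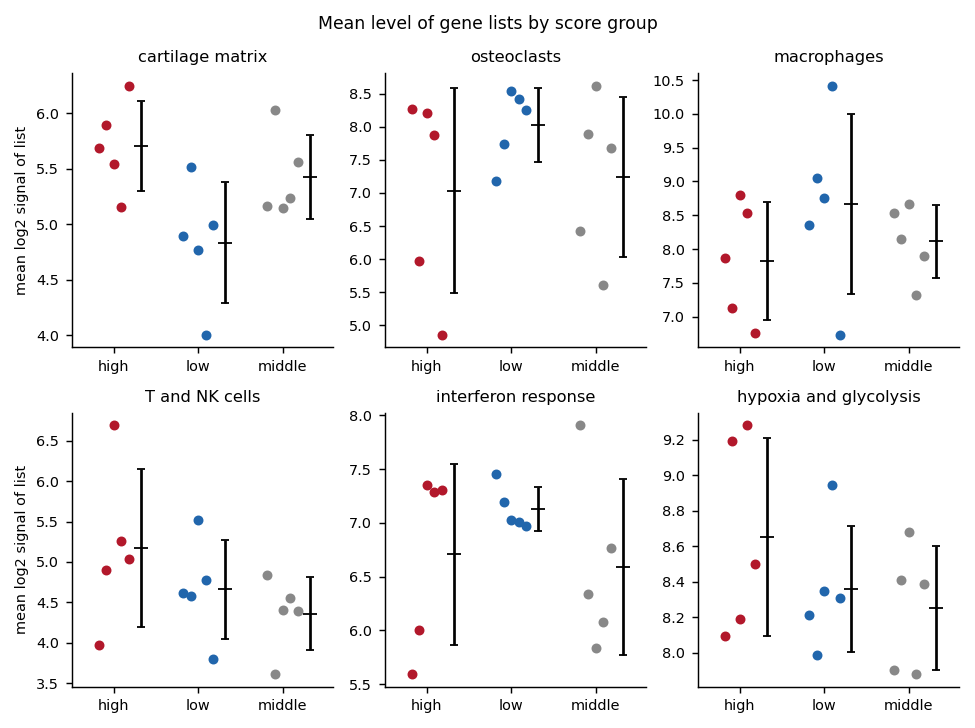
Mean log2 PLIER signal over the measured members of 6 gene lists (y axis) in each high-score, low-score and middle tumor (points, 5 each), with mean and SD. The osteoclast list lies between 4.85 and 8.28 in high-score tumors and between 7.18 and 8.54 in low-score tumors, and the cartilage list overlaps between the groups at 5.16 to 6.25 and 4.0 to 5.51.

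Myoglobin (MB), an oxygen store of muscle, was near background in every tumor of both groups. It had 4.08 to 5.03 in high-score and 5.25 to 5.84 in low-score tumors without overlap (adjusted p = 0.521 in limma). Skeletal actin (ACTA1) had 5.73 to 7.92 and 7.04 to 9.09. Of the 18 muscle genes measured, 6 had a higher and 12 a lower mean in high-score tumors, with a median difference of -0.16. Over the 18 the mean log2 level was 5.25 ± 0.22 in high-score and 5.48 ± 0.33 in low-score tumors (SD, n = 5 each), and 4 of the 18 had a mean above the reporter level. IGF2BP1, an RNA-binding protein of fetal tissue, had 7.17, 9.85, 9.57, 8.70 and 9.31 in high-score tumors, against 10.37, 2.97, 8.88, 4.11 and 2.84 in low-score tumors. Of these, 3 low-score tumors were near background and the other 2 were as high as the high-score tumors (difference 3.08 ± 1.48, SE; adjusted p = 0.644). The 2 were the DFI<100 tumors and the 3 the DFI>300 tumors of the low-score group, and the difference was -1.05 within the DFI<100 and 6.13 within the DFI>300 cohort, with an adjusted p of 0.334 for the interaction of score group and cohort in limma.

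The score was set against the cohorts and against age. It averaged 7.87 ± 1.96 in the DFI<100 cohort (SD, n = 8) and 5.71 ± 3.19 in the DFI>300 cohort (SD, n = 7), a difference of 2.16 (2-sided exact permutation test over 6435 splits, p = 0.126). Without dog 190030 alone, the difference was 1.11 (p = 0.279, same exact test). DFI<100 tumors were 3 of 5 high-score and 2 of 5 low-score tumors (p = 1, Fisher's exact test). The dogs with high-score tumors were 8.54 ± 1.65 years old and those with low-score tumors 11.0 ± 1.61 years (SD, n = 5 each), a difference of -2.48 years (2-sided exact permutation test over 252 splits, p = 0.0556). With age as a covariate in limma the PIP probeset no longer passed, 0 probesets had an adjusted p below 0.05, and 1816 in place of 3374 had an unadjusted p below 0.05. The latter count was 2916 with cohort and 3351 with the 3 prime to 5 prime ratio as the covariate, and the PIP probeset passed in both. Because age differed between the groups, that fit cannot fully tell age from score group.

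The leading genes were refitted without Greyhounds and within each cohort, by fits chosen after seeing the data. Even without the Greyhounds the groups shared no breed, so that fit cannot tell breed from score group for any gene. Without the Greyhounds, with 2 high-score against 5 low-score tumors, the difference was 4.83 for HAPLN1, 4.76 for POSTN, 3.17 for EGFR, 2.99 for THBS2, 2.14 for CHSY3 and -4.28 for PIP. Within the DFI<100 cohort, with 3 against 2 tumors, it was 4.66 for HAPLN1, 4.13 for POSTN, 3.62 for EGFR, 2.57 for THBS2, 2.01 for CHSY3 and -4.76 for PIP. Within the DFI>300 cohort, with 2 against 3, it was 4.67 for HAPLN1, 4.93 for POSTN, 2.22 for EGFR, 3.02 for THBS2, 1.86 for CHSY3 and -3.88 for PIP. For all but HAPLN1 the groups did not overlap over the 10 tumors, so that the sign in any subset of these tumors was fixed by the choice of genes and says nothing of its stability. None of the 6, PIP included, had an adjusted p below 0.05 in these smaller fits.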

How the data were processed

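The deposited table holds intensities on a linear scale, a PLIER signal for each probeset on each array, which the authors made with Affymetrix Expression Console (no version given) after selecting RNA by its integrity and hybridising the arrays in 2 batches. Neither the normalization before PLIER nor the batch of an array is given in the sources used here, and no within-batch comparison was possible. Sex, site, subtype and drug came from the study's table of dogs by dog number, and the cohort, breed and age from the sample labels. An array has no read depth, and the precision is set by the number of arrays. Each tumor is 1 dog.

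Signals were turned to log2 without an offset. From 43035 probesets, 175 controls and the 3 probesets of COL2A1 and ACAN were left out, and the other 42857 were fitted with limma 3.58.1 in R 4.3.3 on the 10 high-score and low-score tumors, with Benjamini-Hochberg adjustment over all of them. Probesets were named from the platform annotation: 29251 had 1 gene symbol, 439 several and 13167 none, and a gene stands for its brightest probeset. The score, the groups and the gene lists were chosen with earlier results of these data known. Genes named are the 15 higher and 15 lower with the smallest p above the reporter level, up to 4 members of each list and a fixed set of cartilage and bone genes, though not all are described. CNMD is among the cell type markers, and PIP, outside this rule, was chosen as the 1 probeset that passed.

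As alternatives, a robust limma fit with a mean-variance trend, the methods' t-test, log2 after adding 16, quantile normalization, probesets above the reporter level only, all 15 tumors in 3 groups, a slope on the score, cohort, age or the 3 prime to 5 prime ratio as a covariate, array weights, ranking on COL2A1 or ACAN alone, 4 against 4 and 7 against 7 tumors, the mean over a gene's probesets and each tumor left out were tried. A score with an offset of 16, a fit without Greyhounds and fits within each cohort and of the interaction with cohort were chosen after seeing the data. The limma fit and the t-test were also run on simulated normal values with known shifts in probesets above the reporter level. No shift was placed in signals near background, and the choice of groups by the score was not simulated.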

Additional observations from a re-analysis of the deposited data

Results flagged for a closer look

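Among 132 groups of 5 tumors, the high-score and the low-score tumors for each of 66 genes described, 3 held a tumor whose gap to its nearest neighbour exceeded 0.71 of the range of its group, where chance alone gives about 1 in 20. POSTN was 9.65 in dog 223986, against 10.99 to 11.30 in the other high-score tumors. IHH was 5.47 in dog 204714, against 4.32 to 4.61 in the other high-score tumors, all near background. CXCL10 was 9.96 in dog 153599, against 4.21 to 5.59 in the other low-score tumors. Without these tumors the differences were 4.76 for POSTN, 0.13 for IHH and 3.71 for CXCL10, in place of 4.46, 0.33 and 2.73.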

How the results depend on the processing

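The count of probesets past an adjusted p of 0.05 was 1, and it was never large. It was 0 with the methods' t-test, an offset of 16, only probesets above the reporter level, a slope on the score, age as a covariate and 7 against 7 tumors, 2 when ranked on COL2A1 alone, 3 with array weights and with 4 against 4 tumors, and 0 to 6 with each tumor left out. Chosen after seeing the data, it was 8 without Greyhounds, 8 within the DFI<100 cohort and 15 within the DFI>300 cohort, where arms of 2 or 3 tumors share 1 estimate of spread. The PIP probeset passed in 14 of the 28 alternatives that tested it, 8 of 10 with a tumor left out among them. Of 49 probesets that passed in any of the 29 fits of the 2 score groups or the score, 3 were above the reporter level as a mean. The interaction of score group and cohort, also chosen after seeing the data, passed for 9 probesets, none of them a gene described here.

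Of 66 genes described, 51 kept the sign of their difference in every alternative that was run, and none other than PIP passed an adjusted p of 0.05 in any by the probeset described. Where the groups do not overlap, a subset of the tumors cannot turn the sign. Without dog 188084, 2 other probesets of SMOC2 passed. Ranked on ACAN alone, which kept 2 of the 5 high-score and 3 of the 5 low-score tumors, the sign turned for SOX5 (-1.87), COL10A1 (0.052), CDON (0.062), TNC (1.30), COL12A1 (-0.0788), BMP4 (0.14), ID3 (0.10), IBSP (-0.55), RUNX2 (-0.48) and IGF2BP1 (-0.25). Ranked on COL2A1 alone it turned for MATN1 (0.041) and SOX9 (-0.28). Within the DFI<100 cohort it turned for MATN3 (-1.35), RUNX2 (-0.27) and IGF2BP1 (-1.05), and within the DFI>300 cohort for MATN1 (0.0032), SOX9 (-1.40) and COL5A1 (-0.0053). With age as a covariate it turned for IHH (-0.016) and RUNX2 (-0.22). The mean of all probesets turned COL10A1 (3.95), whose other probeset has a mean far below background but 10.55 in dog 204714. RUNX2 also turned on the slope (-0.031) and without Greyhounds (-0.29), and lay between -0.15 and 0.39 with a tumor left out, negative without dog 223986, 208513 or 180223. The cause was not tested.

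The age difference was -2.99 to -1.89 years with a dog left out, with exact permutation p values of 0.0397 to 0.103, the lower ones without dog 188084, 153599 or 208756. It was -2.175 years with 4 against 4 dogs and -2.49 years with 7 against 7 (p = 0.171 and 0.0828, same exact test). The score difference between cohorts was 1.11 to 2.64 with a dog left out, with exact p values of 0.0739 to 0.279, and the cohort counts kept p = 0.486 or above in Fisher's exact test. By each scoring gene alone, the difference between cohorts was 3.70 for COL2A1 and 0.63 for ACAN (exact permutation p = 0.135 and 0.629). No paired analysis was possible because the labels give no replicate numbers shared between groups. With 5 tumors a group, the spread between dogs limits what can be called, and 33.9% of probesets were above the reporter level.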
